A study of Homo sapiens with 4 samples.

Results

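The regions described here are 1520 stretches of chromatin that lie close together and that were called as accessible only after treatment with I-BET151. They were chosen by their calls in 4 ATAC-seq peak lists. Merging all peaks with any overlap gave 164301 regions, and a region was called gained when both I-BET151 lists had a peak in it and neither DMSO list did. Gained regions were then stitched to neighbours at most about 12 kb away, and those standing in a cluster of 3 or more were kept. Of the 27885 gained regions, 17.0% of all merged regions, 1520 (5.45%) met this rule, in 479 clusters. Because the calls chose the regions, absence from the DMSO lists and presence in both I-BET151 lists are a description of the choice and were not tested.

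The cells were pancreatic progenitors derived from MEL1 INS GFP/W, one established human embryonic stem cell line that carries a GFP reporter at the insulin gene. Both groups were cultured in EF6 medium, which holds B27, EGF, bFGF and the TGF-beta receptor inhibitor 616452, and received either DMSO or 1 μM I-BET151 for 7 days. There were 2 libraries per group, each from 50000 cells, and the labels do not say whether these came from separate cultures, so a p-value here measures only the spread between these libraries. All results rest on a single cell line and time point.

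ATAC-seq marks open DNA by inserting sequencing adapters with the Tn5 transposase. I-BET151 blocks the bromodomains with which BET proteins bind acetylated histones. Neighbouring accessible elements are a familiar feature of genes that specify cell identity, where several enhancers can act on one promoter. CTCF, a zinc finger protein, holds chromatin loops in place together with cohesin.

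Library depths were inferred from the lists and were not counted. They were about 38.7 and 36.6 M reads for the DMSO lists, which held 82568 and 38295 peaks. For the I-BET151 lists, which held 84995 and 111324 peaks, they were about 12 and 16 M reads. The list lengths bear directly on the clusters. Each setting calls gained regions anew. With each list cut to its 38295 strongest peaks by −log10 p there were 24 in 8 clusters. With a −log10 p of at least 10 there were 497 in 156 clusters, and with at least 5 there were 1244 in 389 clusters. Of these clusters, 4 of the 8, 40 of the 156 and 350 of the 389 overlapped one of the 479 clusters. Leaving out DMSO replicate 1 gave 3247 clustered gained regions, and leaving out DMSO replicate 2 gave 1813. Without I-BET151 replicate 1 there were 14631, and without I-BET151 replicate 2 there were 5941. Of 10 pancreatic progenitor marker genes, 7 and 6 had a peak within 1 kb of the start site in the DMSO lists and 9 and 9 in the I-BET151 lists, and PTF1A had none in any list. The counts for 13 mesenchymal markers were 6 and 7 with DMSO and 9 and 9 with I-BET151, for 11 neural markers 3 and 2 against 6 and 5, for 18 endocrine genes 5 and 2 against 8 and 10, for 10 liver genes 4 and 4 against 5 and 6, for 10 pluripotency genes 4 and 4 against 3 and 4, and for 11 intestinal and gastric genes 7 in each list. The part of these other cell types in the clusters was not tested. No share over all start sites is set beside these counts, and the lists differ in length. The counts therefore do not show a change particular to any marker list.

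The first sequences show CTCF sites, because the CTCF consensus was more frequent in gained regions than in merged regions as a whole. They are the 5 clustered gained regions that hold the consensus within 100 bp of the summit and have the highest fold enrichment, taken as the lower of the I-BET151 libraries. Each sequence is from hg38 and reads 5′ to 3′ along the strand that carries the match, which stands in capitals with 20 bp on each side.
ZBTB7C upstream, chr18:48446765-48446816, minus strand: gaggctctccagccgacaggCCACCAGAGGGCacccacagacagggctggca
MCC intron 2, chr5:113367805-113367856, minus strand: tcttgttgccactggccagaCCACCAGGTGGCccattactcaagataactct
DGKZ intron 5, chr11:46369607-46369658, plus strand: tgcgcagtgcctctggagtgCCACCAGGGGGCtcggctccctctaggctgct
SMIM36 upstream, chr17:55526549-55526600, plus strand: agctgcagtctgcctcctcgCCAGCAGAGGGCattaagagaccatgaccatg
IFI6 downstream, chr1:27663314-27663365, minus strand: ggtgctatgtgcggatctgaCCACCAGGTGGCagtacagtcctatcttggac
The matches in MCC, DGKZ and near IFI6 were centred 2 bp from the summit, and those near ZBTB7C and SMIM36 lay 52 and 69 bp to its left on the chromosome. Fold enrichment, the ratio of reads at the summit to the local background, was 9.57 in I-BET151 replicate 1 and 9.95 in replicate 2 for the region near ZBTB7C. It was 9.24 and 10.9 in MCC, 10.0 and 9.20 in DGKZ, 8.03 and 8.76 near SMIM36, and 8.92 and 7.59 near IFI6. By the rule of choice, none of the 5 was called in a DMSO list.

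A second set of sequences shows the pair of distal regions upstream of PDX1 and the region with the most reads in the CDH1 cluster, the loci that are followed in most detail below. Each is the 81 bp centred on the summit, on the plus strand of hg38, with matches to the motifs searched in capitals.
PDX1, 10.3 kb upstream, chr13:27909619-27909699: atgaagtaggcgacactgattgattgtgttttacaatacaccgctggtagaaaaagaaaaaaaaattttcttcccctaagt
PDX1, 8.35 kb upstream, chr13:27911610-27911690: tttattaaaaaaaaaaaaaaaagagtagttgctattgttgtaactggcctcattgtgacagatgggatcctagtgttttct
CDH1 intron 2, chr16:68786815-68786895: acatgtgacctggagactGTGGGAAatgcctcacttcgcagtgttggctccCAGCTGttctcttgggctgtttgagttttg
Within 100 bp of the summit, neither PDX1 region held any of the 16 motifs searched. The CDH1 window held GTGGGAA, the letters bound by the Notch effector RBPJ, and the E-box CAGCTG.

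Most clusters were small. Of the 479 clusters, 411 held 3 gained regions, 56 held 4, 10 held 5, 1 held 6 and 1 held 7. Their median span was 15.9 kb, with a range of 2.24 to 40.8 kb, and gained regions covered a median of 10.5% of the span. The 1041 gaps between neighbours had a median of 6.94 kb, and 71 of them were under 1 kb. The longest gap that was stitched measured 12.498 kb and the shortest beside a cluster that was not stitched 12.531 kb. Narrow regions thus stood apart from each other by several kilobases. With gaps of at most 5 kb there were 146 regions in 48 clusters, and with gaps of at most 25 kb there were 5141 in 1495 clusters. Outside the clusters stood 2817 pairs of gained regions and 20731 gained regions with no gained neighbour within the stitching distance.

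**Figure D1:**
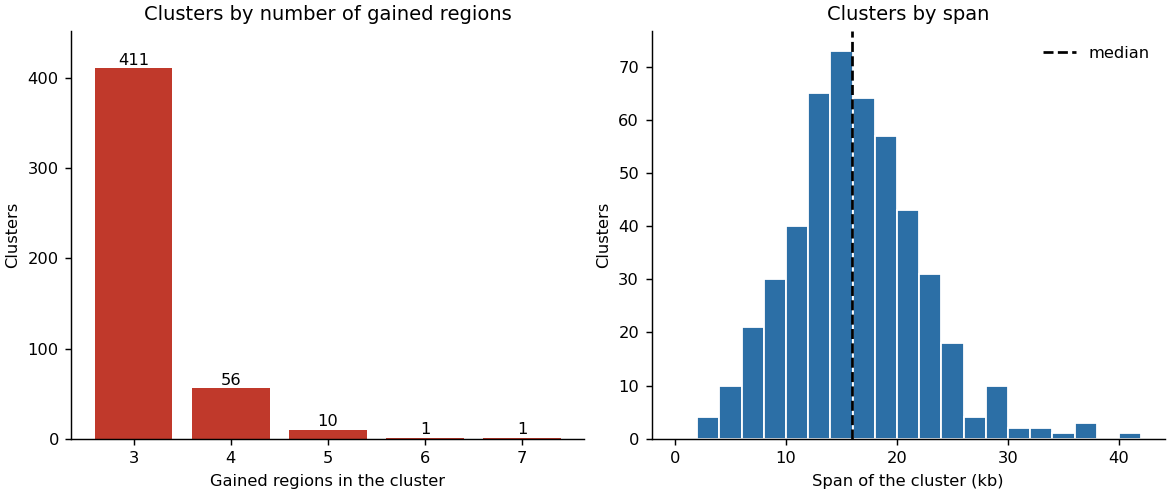
Left, number of clusters (y axis) by the number of gained regions they hold (x axis). Right, number of clusters by span in kb, with the median of 15.9 kb as a dashed line. Most of the 479 clusters, 411, hold 3 gained regions.

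Regions called only in the DMSO lists were stitched in the same way for comparison. Of 3896 such lost regions, 47 (1.21%) stood in 14 clusters, the largest of 4. There were far fewer lost than gained regions to stitch, so these shares do not compare like with like.

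Clustered gained regions were weak to moderate peaks. Their fold enrichment in I-BET151 replicate 1 ranged from 2.65 to 13.6 with a median of 5.16, and in replicate 2 from 2.32 to 15.5 with a median of 5.61. In gained regions outside clusters the medians were 5.39 and 6.04, and in regions called in all 4 lists 8.33 and 10.0. Clustered regions therefore had slightly lower fold enrichment than other gained regions in both libraries. The pileup, the number of reads over the summit, showed the other order: its median was 13 and 21 reads in clustered regions and 12 and 19 reads in other gained regions. The local background moved with it, at a median of 1.56 and 2.57 reads in clustered regions and 1.20 and 1.93 in other gained regions. The replicates ranked clustered regions alike only in part, with a Pearson r of 0.62 for log2 fold enrichment and a Spearman coefficient of 0.58 across the 1520 regions, which share libraries and are not independent. The summits of the I-BET151 libraries lay a median of 79 bp apart in clustered regions and 77 bp apart in other gained regions. Within a cluster, the strongest region exceeded the weakest by a median factor of 1.52, and in 238 of the 411 clusters of 3 the same region was strongest in both libraries.

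**Figure D2:**
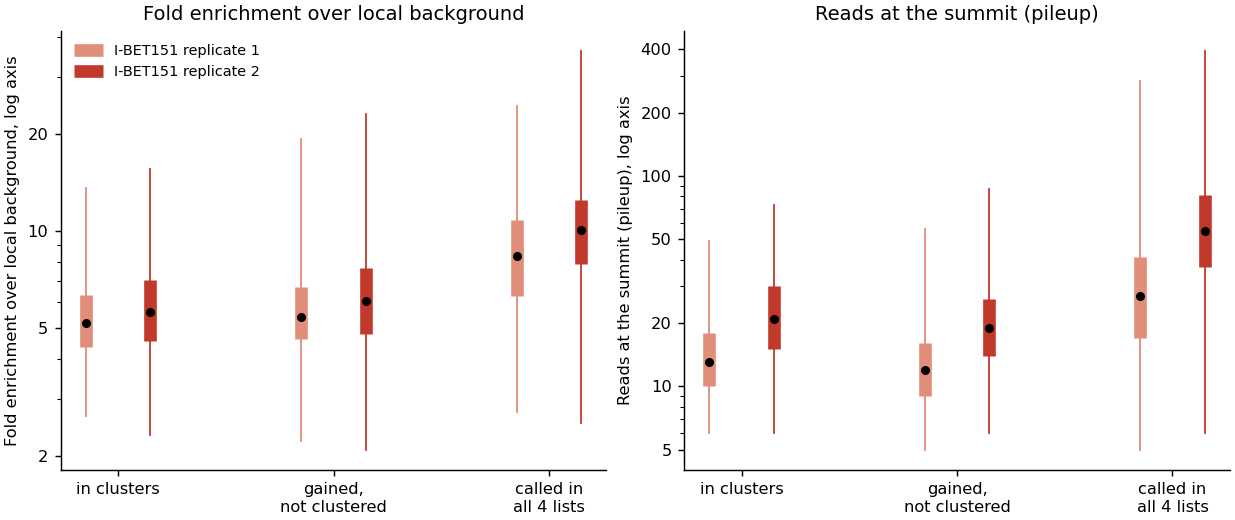
Fold enrichment (left) and reads at the summit (right), both on log axes, in I-BET151 replicates 1 and 2 for gained regions in clusters, gained regions outside clusters and regions called in all 4 lists. Black points are medians, thick bars span the quartiles and thin lines run from the lowest to the highest value. In clusters the median fold enrichment is 5.16 and 5.61, below the 8.33 and 10.0 of regions called in all 4 lists.

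Absence from a DMSO list does not show that the DNA was closed there. The weakest peaks of the DMSO lists had pileups of 10 and 11 reads. In regions called in all 4 lists, the pileup scaled to library depth was higher with I-BET151, by a median of 1.57 on the log2 scale for the replicates numbered 1 and by 2.25 for those numbered 2. Scaled down by this same shift, the median clustered gained region would have 13.6 reads in DMSO replicate 1 and 10.1 reads in DMSO replicate 2. Under that scaling, 327 of the 1520 regions (21.5%) would fall under the weakest peak of DMSO replicate 1 and 843 (55.5%) under that of replicate 2. For gained regions outside clusters the shares were 29.4% and 65.6%. The weakest peak is a single floor per list, whereas a call also depends on the local background. Regions above the floor therefore need not have been called. The floor also takes no account of the higher local background of clustered regions, which limits the comparison of both sets. The part of this shift in the gained calls was not tested.

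Clustered gained regions lay mostly in introns and between genes. Of the 1520 regions, 104 (6.84%) had their summit within 1 kb of the start site of a protein-coding gene, 36 lay in exons, 755 (49.7%) in introns and 625 (41.1%) between genes. The promoter share was 4.78% in other gained regions, 32.4% in regions called in all 4 lists, 2.75% in lost regions and 7.77% in all merged regions. The median distance to a start site was 51.8 kb, against 74.3 kb for other gained regions. A distance of over 100 kb was found for 34.2% of clustered and 42.7% of other gained regions. The sequence around the summit was richer in G and C, with a median of 47.8% against 45.3% in other gained regions, and equal to the 47.8% of all merged regions. Median width was 481 and 483 bp in clustered and other gained regions. With clusters called anew in each setting, the promoter share was 15.5% with a −log10 p of at least 10, 29.2% with lists of equal length and 3.87% without I-BET151 replicate 1.

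**Figure D3:**
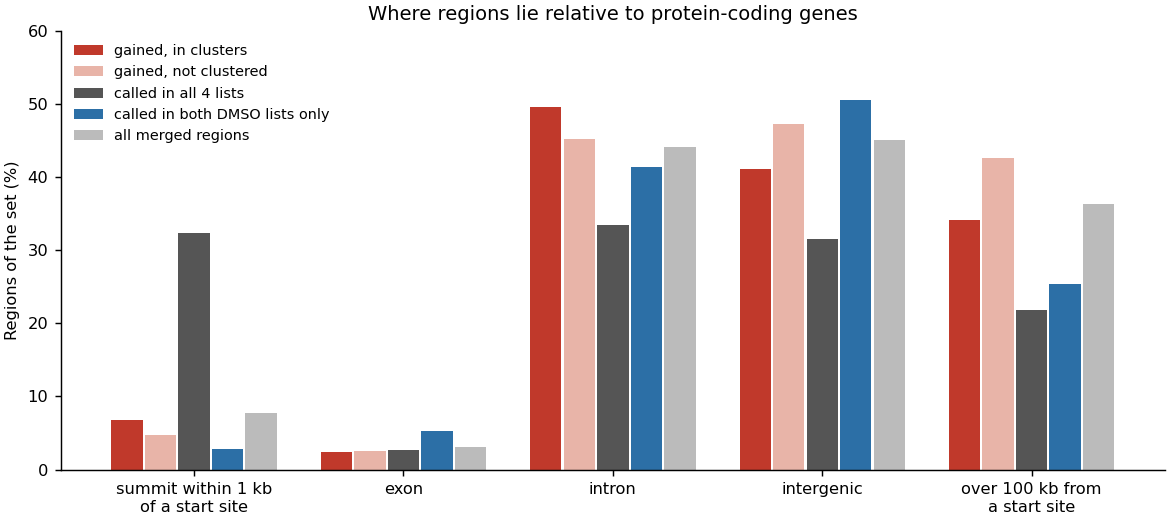
Percent of regions (y axis, from 0) in each position class (x axis) for 5 sets of regions. The first 4 classes add up to all regions of a set, and the last is a separate count by distance. Gained regions in clusters lie in introns in 49.7% and at promoters in 6.84%, while regions called in all 4 lists lie at promoters in 32.4%.

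Clusters were also counted by the genes they overlapped. Of the 479 clusters, 323 (67.4%) overlapped a protein-coding gene, 205 lay wholly inside a gene body, and in 415 all gained regions had the same nearest gene. No share for other spans of like length is set beside these counts, so they do not show a preference for genes. Region by region, 41.1% of clustered and 47.4% of other gained regions lay between genes. All gained regions were intronic in 184 clusters and intergenic in 157. A promoter was among the gained regions of 90 clusters, of which 63 also held an intronic one, and 14 clusters held 2 or more promoters. The gained share of merged regions was lowest on chromosome 19, at 9.19%, yet the share of gained regions standing in clusters was highest there among the autosomes, at 7.69%, and lowest on chromosome 22, at 3.15%. Chromosome 19 contributed 31 regions in 10 clusters and chromosome 22 only 9 in 3, so these shares rest on few regions.

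Few other regions lay within the spans, which the gained regions themselves delimit. Of 1871 merged regions within the spans, 1520 (81.2%) were the clustered regions themselves. The other 351 comprised 45 called in all 4 lists, 102 called in DMSO lists only, 112 called only in I-BET151 replicate 2, 30 called only in I-BET151 replicate 1 and further combinations. No DMSO peak at all was found within the span of 316 clusters (66.0%). When flanks of the stitching distance were added on both sides, 129 clusters (26.9%) had none.

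The largest cluster, with 7 gained regions, spanned chr11:46352166-46393010 and covered the genes DGKZ, MDK and CHRM4. DGKZ encodes a diacylglycerol kinase, MDK the growth factor midkine, and CHRM4 a muscarinic acetylcholine receptor. In I-BET151 replicate 1 the 7 regions held 18, 16, 31, 30, 23, 35 and 29 reads from left to right, and in replicate 2 they held 26, 22, 40, 39, 35, 40 and 47 reads. Replicate 2, the deeper I-BET151 library, had more reads at every region, whereas fold enrichment was higher in replicate 1 at all but the last, which had 5.40 and 5.76. The region in intron 5 of DGKZ, whose CTCF sequence is printed above, had the highest fold enrichment in both libraries, 10.0 and 9.20. One of the 7 covered the MDK start site, with its summit 14 bp upstream, at fold enrichments of 4.11 and 3.63. No DMSO peak lay inside the span.

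The only cluster of 6 lay in a gene desert at chr15:95259495-95297055. Its regions stood over 1 Mb from the start sites of MCTP2 and NR2F2, with fold enrichments of 4.24 to 6.50 in replicate 1 and 3.34 to 8.58 in replicate 2. A second cluster of 5 at chr15:96338818-96368588 began in exon 3 of NR2F2, which encodes the nuclear receptor COUP-TFII, and extended beyond the gene. Its region in that exon held 26 and 55 reads and the farthest region 12 and 8 reads. Each of these spans on chromosome 15 held 1 region that was called in DMSO replicate 1.

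Other clusters of 5 lay in or beside single genes. In LEF1, a transcription factor that acts with beta-catenin in WNT signalling, they covered intron 3, intron 1, the promoter and a site upstream of it, at chr4:108146806-108173652. Reads in replicate 1 were 14, 10, 10, 13 and 14, and in replicate 2 they were 21, 10, 22, 18 and 22. The span held no other region from any list. In ARHGAP26 the cluster crossed introns 1 to 6 with fold enrichments of 5.24 to 8.33 and 6.27 to 8.17, and 1 of its 5 regions held the CTCF consensus. In ABCA4, a lipid transporter best known from photoreceptors, 5 intronic regions ran with 3 others that were called in at least 1 DMSO list. In RAI1 the 5 regions lay around the promoter and in intron 1, with fold enrichments of 2.87 to 4.74 and 3.38 to 4.71.

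Some large clusters had no DMSO peak in the span or in flanks of the stitching distance. They comprised 5 regions in introns of PHEX, a phosphate-regulating endopeptidase, at chrX:22097262-22118584, 5 in introns of the kinase gene PAK5 at chr20:9692805-9727548 and 5 in a desert on chromosome 3 far upstream of SGO1. The clusters upstream of SSBP3 and in FRMD5 held 4 each. In PHEX the replicates differed most at the first region, with 8 reads in replicate 1 and 34 in replicate 2. In PAK5 the counts were low throughout, at 8 to 15 and 7 to 20 reads. The FOXO1-distal cluster on chromosome 13, over 320 kb from that start site, in contrast included 1 lost region with 15 and 14 reads in the DMSO libraries.

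The strongest clustered regions, ranked by the lower of both fold enrichments, were mostly far from promoters. The first lay in the gene body of FYB1, an adaptor protein of blood cells, at chr5:39231749-39232425, with fold enrichments of 13.1 and 15.5 and pileups of 38 and 52 reads. A region 36.0 kb upstream of RTN4 had 32 and 49 reads and a fold enrichment of 12.3 in replicate 2. A further 7 comprised regions in FOXP2, WDR35, NEXMIF, NKAIN2 and ADGRV1, one upstream of CYP4B1 and one in an intergenic stretch whose nearest start site, that of DCDC2C, was 906 kb away. Their fold enrichment ranged from 10.5 to 11.9 in replicate 1 and from 10.7 to 14.5 in replicate 2.

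PDX1, the transcription factor that marks and is needed for the pancreatic lineage, carried a cluster of 3 gained regions at chr13:27909343-27920249. A region 10.3 kb upstream of the start site held 17 reads in I-BET151 replicate 1 and 34 in replicate 2, with fold enrichments of 4.97 and 6.03. A region 8.35 kb upstream held 13 and 28 reads, with 3.63 and 4.98. The third covered exon 1, with its summit 43 bp into the gene, and held 35 and 61 reads, with 4.90 and 5.20. By the rule of choice, none of these positions was called with DMSO. NKX6-1, SOX9, HES1 and HEY1, whose loci the study also followed, had no cluster within 5 kb of the gene body.

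Between the upstream regions and exon 1 of PDX1 lay a region that was called in all 4 lists, chr13:27917102-27918490, with its summit 1722 bp upstream. With DMSO its pileup was 22 and 21 reads, with I-BET151 it was 40 and 66 reads. Its fold enrichment was 2.43 and 2.37 with DMSO and 5.66 and 5.71 with I-BET151. Groups that do not overlap are not particular to this region. The start site of SNTG1, which fell in rank, had 6.78 and 5.94 with DMSO and 6.89 and 7.36 with I-BET151. Among the 25627 regions called in all 4 lists, ranked within each list, the PDX1 region stood at the percentiles 0.0858 and 0.0780 with DMSO and 17.6 and 6.86 with I-BET151. On normal scores of these ranks it was higher by 1.95 ± 0.39 (SE, 2 libraries per group), and limma gave an adjusted p of 0.0150. Without DMSO replicate 1 the difference was 1.96 (limma, adjusted p = 0.0656) and without DMSO replicate 2 it was 1.93 (limma, adjusted p = 0.0583), so the size hardly moved while the call was lost. In such fits 1 library stands alone in its group and is assumed to vary like those of the other group.

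**Figure D4:**
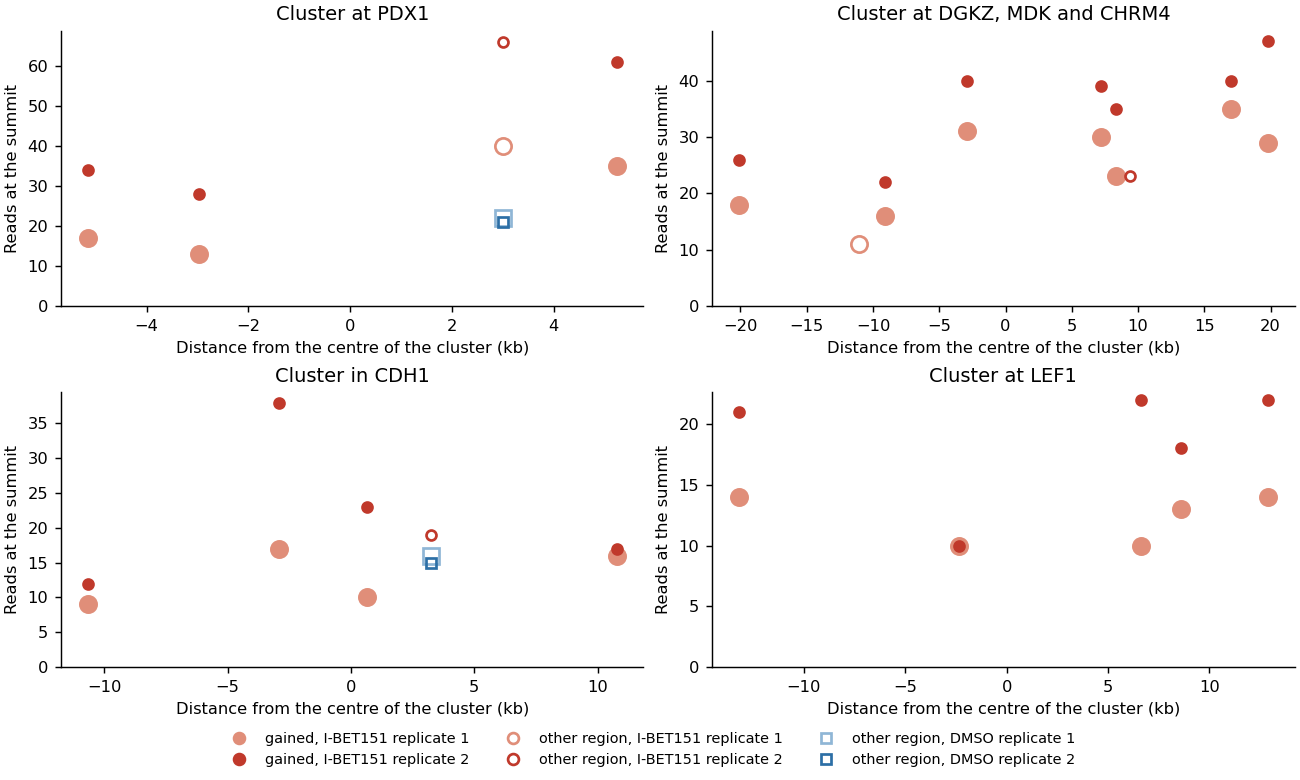
Reads at the summit (y axis, from 0) of every region within the span of 4 named clusters, by distance from the centre of the cluster in kb (x axis). Filled points are gained regions in the I-BET151 replicates, open circles and squares are other regions in the I-BET151 and DMSO replicates in which they were called. Reads are not scaled to library depth. At PDX1 the region called in all 4 lists stands between the gained regions, with 22 and 21 reads with DMSO and 40 and 66 with I-BET151.

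This test was applied to all regions called in all 4 lists, which are not themselves clustered gained regions, and 3.41% of them rose and 1.96% fell in rank. Of the 45 that lay within the span of a cluster, 1 rose and 2 fell at the adjusted threshold, and 5 were higher and 8 lower at an unadjusted p under 0.05. The median difference of the 45 was −0.11 on normal scores, against −0.03 over all, and 19 of the 45 were higher with I-BET151. The region that rose is the one at PDX1. Those that fell were chr3:71245991-71246841, in an intron near FOXP1, which fell by 1.87 ± 0.38 (SE, limma adjusted p = 0.0157), and the start site of SNTG1, which fell by 1.39 ± 0.38 (SE, limma adjusted p = 0.0460). With 1 library left out, and the lone library of that group assumed to vary like the others, the FOXP1 call was lost without DMSO replicate 1, at −1.74 (limma, adjusted p = 0.133). The SNTG1 call was lost without DMSO replicate 1, DMSO replicate 2 or I-BET151 replicate 2, at −1.34, −1.44 and −1.19 (limma, adjusted p = 0.315, 0.205 and 0.0695). Both falls are in rank only: on the log2 of the depth-scaled pileup, where 96.1% of all tested regions rose, the SNTG1 region was higher by 1.81 (limma, adjusted p = 7.62e-05) and the FOXP1 region by 0.86 (limma, adjusted p = 0.0525).

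Across all 20007 protein-coding genes, 476 (2.38%) had a cluster within 5 kb of the gene body, and 41.3% had at least 1 gained region. Gene lists were set beside this background by count alone. Gene length was not taken into account, and a longer gene body has more room for a cluster. Of 40 genes of pancreatic development, 6 (15%) had a cluster: PDX1, FOXA3, PROX1, RFX3, GLIS3 and NR5A2. At least 1 gained region was found at 19 of the 40 (47.5%). Within 5 kb of the gene body, RFX3 had 10 gained regions and GLIS3 had 14. PDX1, FOXA3, PROX1 and NR5A2 had 1, 3, 4 and 4. The FOXA3 cluster joined the promoter of this pioneer factor, with 16 and 38 reads, to 3 regions between FOXA3 and the neighbouring IRF2BP1. In PROX1, a homeobox gene of liver and pancreas development, 3 regions in introns 2 and 3 held 13, 14 and 14 reads in replicate 1 and 24, 23 and 20 in replicate 2. In RFX3, a regulator of cilia and endocrine genes, 3 regions in intron 3 held 8 to 11 and 9 to 16 reads, with no DMSO peak in the span or its flanks.

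WNT signalling had 3 of 39 genes with a cluster, namely LEF1, TCF7L2 and SFRP1. In TCF7L2, a partner of beta-catenin, 3 regions of intron 5 held 13, 19 and 15 reads in replicate 1 and 16, 22 and 26 in replicate 2. In SFRP1, a secreted WNT antagonist, the regions included the start site, at 16 and 18 reads. Notch signalling had 1 of 45, LFNG, a glycosyltransferase that modifies Notch receptors. Its 3 regions lay upstream of the start site, in the gene body and beyond the gene, with fold enrichments of 5.07, 5.41 and 4.02 in replicate 1 and 4.58, 4.20 and 3.14 in replicate 2. The region beyond the gene held only 8 and 9 reads, with a −log10 p of 4.01 in replicate 2. With a −log10 p of at least 5 it would not be called in both I-BET151 lists.

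The epithelial adhesion list had 1 of 33, CDH1, which encodes E-cadherin. All 4 of its regions lay in intron 2, at chr16:68778690-68800865. They held 9, 17, 10 and 16 reads in replicate 1 and 12, 38, 23 and 17 reads in replicate 2. The second and the fourth were strongest, with fold enrichments of 6.92 and 8.84 in replicate 1 and 9.14 and 7.15 in replicate 2. A further region between them was called in both DMSO lists, with 16 and 15 reads, and in I-BET151 replicate 2, with 19. These reads are not scaled to depth, which was inferred as about 38.7 and 36.6 M reads for DMSO and 16 M for I-BET151 replicate 2.

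Of 39 HOX genes, 8 had a cluster, all in the HOXA locus, where neighbouring genes share 2 clusters. The first, at chr7:27099238-27123533, held 4 regions, 1 beyond the 3′ end of HOXA2 and 3 in introns of HOXA3, with 13, 17, 17 and 11 reads in replicate 1 and 18, 43, 35 and 14 in replicate 2. The second, at chr7:27143138-27161438, held 3, the first of which lay at the HOXA5 start site with 15 and 24 reads. The middle region of the 3 held 9 and 13 reads, with a −log10 p of only 4.19 in replicate 1. The CTCF and cohesin list had 2 of 16, STAG1, a cohesin subunit, and MAU2, part of the cohesin loader. In STAG1 the region in intron 4 with 19 and 41 reads was the strongest, at fold enrichments of 7.94 and 9.62. The cluster at MAU2 lay beyond the 3′ end of the gene, where the nearest start site was that of GATAD2A, and held 15, 7 and 6 reads in replicate 1 and 35, 27 and 12 in replicate 2. Its last region had a −log10 p of only 4.03 in replicate 1.

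Among 18 endocrine genes, ABCC8 and KCNJ11, the subunits of the ATP-sensitive potassium channel of beta cells, were counted for 1 and the same cluster at chr11:17384006-17389913. Its span overlapped KCNJ11 only, and ABCC8 was counted because its gene body lay within 5 kb. ABCC8 had no peak within 1 kb of its start site in any list. The cluster covered the KCNJ11 start site with 16 and 36 reads, the KCNJ11 exon with 17 and 30 and a site 5216 bp downstream of the start with 15 and 23, which held the CTCF consensus. Of 10 liver genes, TTR, the carrier of thyroid hormone and retinol, had a cluster of 3 with 8, 13 and 9 reads in replicate 1 and 23, 25 and 21 in replicate 2. Neither of these clusters had a DMSO peak in the span or its flanks. No gene of the TGF-beta list (34 genes), the Hippo and AP-1 list (22), the BET and P-TEFb list (15), or the pluripotency (10), mesenchymal (13), neural (11) and intestinal (11) lists had a cluster. At least 1 gained region was found at 22, 11, 5, 1, 10, 6 and 4 genes of these lists, in that order.

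The CTCF consensus stood within 100 bp of the summit in 64 of the 1520 clustered regions (4.21%, exact 95% binomial interval 3.26 to 5.35%, which covers counting error only). It was found in 4.12% of other gained regions, 2.30% of regions called in all 4 lists, 0.385% of lost regions and 1.86% of all merged regions. Clustered regions thus held it about as often as other gained regions. The 64 were spread over 62 clusters, and only 2 clusters held 2 of them, 1 pair pointing the same way and 1 pair pointing apart.

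Other motifs were searched as exact matches on both strands of the same window. Those of GATA, HNF6 and FOXA factors were somewhat less frequent in clustered than in other gained regions, and that of SP and KLF factors was more frequent. AGATAA, bound by GATA factors, was found in 16.1% of clustered regions, 17.5% of other gained regions and 14.2% of all merged regions. TATNGAT, bound by HNF6, was found in 7.30%, 9.17% and 6.50% of these sets, and TGTTTAC, bound by FOXA factors, in 4.47%, 5.58% and 4.57%. CATNAATCA, bound by PDX1, was found in 1.84%, 1.94% and 1.37%, and CCATTGT, bound by SOX9, in 3.75%, 3.36% and 2.90%. The G and C rich GGGCGG of SP and KLF factors was found in 12.8%, 8.81% and 10.4%, and the E-box CAGCTG in 16.0%, 13.5% and 13.6%. Within 50 bp of the summit the order turned for the E-box, at 7.24% in clustered and 7.37% in other gained regions, and for the SOX9 motif, at 1.38% and 1.72%. The SOX9 order also turned within 250 bp, at 7.04% and 7.31%. The RBPJ motif within 100 bp was found in 5.33% of clustered, 5.00% of other gained, 5.29% of lost and 4.86% of all merged regions. Within 50 bp its order turned too, at 2.43% in clustered and 2.54% in other gained regions. The RBPJ match in the CDH1 window is thus of a kind found about as often outside clusters. A link of that match to Notch signalling was not tested. A GATA and an HNF6 match shared letters in 7 clustered regions. A match describes the letters and does not show binding.

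To see whether a neighbourhood of gained regions goes with a call in a library that was not used to choose it, regions were chosen with one I-BET151 list left out. Chosen without replicate 1, 41.9% of 14631 clustered regions and 43.6% of 49996 others were called in replicate 1, a difference of −1.65 percentage points. Chosen without replicate 2, 69.3% of 5941 clustered regions and 64.4% of 41270 others were called in replicate 2, a difference of 4.86. The difference therefore changed sign between the libraries. Clustered regions were weaker in the list used to choose them, with a median fold enrichment of 4.84 against 5.17 and of 4.68 against 4.81. A split into 4 groups of like fold enrichment was not planned beforehand. Within each group, clustered regions were called more often in both libraries. The groups are alike in fold enrichment only and were not matched for reads or local background. From the weakest to the strongest group, 21.1%, 34.2%, 50.0% and 73.7% of clustered and 20.4%, 33.0%, 48.4% and 71.7% of other regions were called in replicate 1. In replicate 2 the shares were 50.0%, 62.7%, 75.9% and 95.1% against 39.2%, 56.1%, 71.5% and 93.2%. The DMSO libraries gave a like comparison: chosen without DMSO replicate 1, 24.2% of clustered and 22.7% of other regions were called in it, and for DMSO replicate 2 the shares were 6.398% and 5.99%.

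**Figure D5:**
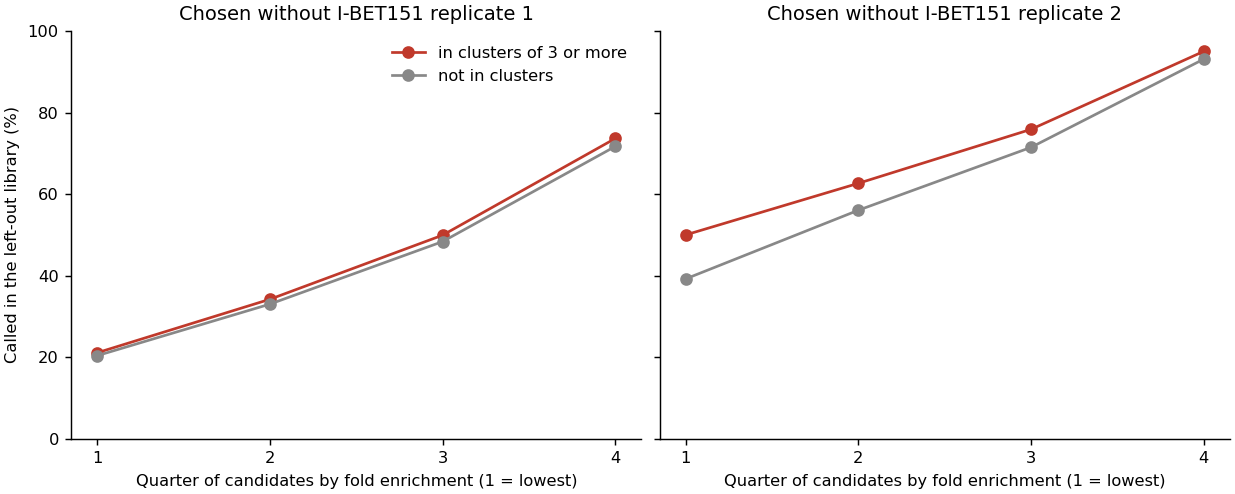
Percent of regions called in the I-BET151 library that was left out of the choice (y axis, from 0) by group of fold enrichment, from 1 (weakest) to 4, in the list that was used (x axis), for regions in clusters of 3 or more and the rest. The left panel leaves out replicate 1 and the right panel replicate 2. In the weakest group of the right panel the shares are 50.0% and 39.2%.

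Crowding of peaks was also counted within each list, regardless of gain. In the DMSO lists 39.5% and 17.1% of peaks stood in runs of 3 or more at the same stitching distance, and in the I-BET151 lists 33.0% and 47.6%, so the groups overlapped. The means were 28.3% ± 15.8 (SD, n = 2) and 40.3% ± 10.3 (SD, n = 2), and a two-sided exact permutation test gave p = 0.667, where 2 against 2 libraries allow no p below 0.333. With lists of equal length the order turned, at 15.7% and 17.1% with DMSO and 13.7% and 12.6% with I-BET151 (exact permutation p = 0.333).

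Lists of equal length left 8 clusters, of which 4 overlapped one of the 479 clusters, that is 0.835% of them. These 4 were chosen after their values were seen: at GLI4, at VASH1, at LIF and about 103 kb from the start site of FOXA2, a pioneer factor of endoderm. Near FOXA2 the equal lists gave 3 regions at chr20:22684011-22692281, with mean fold enrichments of 7.21 and 7.97 and with 18 to 26 reads in replicate 1 and 30 to 34 in replicate 2. At LIF, which encodes a cytokine, the 3 regions held 20 to 30 and 47 to 50 reads.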

How the data were processed

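ATAC-seq peak lists of 2 DMSO and 2 I-BET151 libraries were used, grouped by their labels. The authors aligned reads to hg38 with Bowtie2 2.2.5, and MACS2 2.1.2 gave a list for every library on its own. The deposited lists give for each peak a fold enrichment at the summit, a −log10 p, a −log10 q and a score, and the −log10 q and score were not used further. Neither read counts nor signal at positions without a peak were analysed here, and no column of unmapped samples was left out (0 columns). The lists reach −log10 p of 3.15, 3.39, 3.13 and 2.95, and they differ in length and in shortest peak (200, 233, 200 and 256 bp), which bears on what is called gained.

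The members and all gene lists were chosen with earlier results of these data known. Reads at the summit and the local background were solved from the deposited fold enrichment and −log10 p (tolerance 0.05). Library depth was inferred from the lowest background, the width of the shortest peak and a genome size of 2.7 Gb. All depth-scaled values rest on this inference. Solved reads gave no match for 23 peaks of DMSO replicate 2 and 5 of I-BET151 replicate 2. Genes were those of GENCODE release 44. Stitching used gaps of at most 12.5 kb, and flanks were as long. For regions with a peak in every list, the rank of the fold enrichment within its list was converted to a normal score and the scores were tested with limma 3.58.1 in R 4.3.3 at a Benjamini-Hochberg adjusted p threshold of 0.05. Shares of peaks in runs were compared with exact permutation tests in scipy 1.17.1, and other shares are descriptions. Steps were tested on simulated data.

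Named loci were the 10 clusters with the most gained regions, the 5 densest of those with at least 5, the 5 largest without a DMSO peak in the span or its flanks, the 10 regions whose lower fold enrichment of the I-BET151 libraries was highest, PDX1, NKX6-1, SOX9, HES1 and HEY1, up to 4 genes per gene list, and 5 CTCF regions. A region that this rule names is not reported here. Alternatives changed the −log10 p minimum, the list length, the gap, the cluster size, the windows, the scale of the test and the libraries. Same-numbered libraries were not treated as pairs in the main test, and their deviations from the group means correlated at −0.143. This value covers only ranks in regions called in all 4 lists. It cannot show whether same-numbered libraries were made together. Intervals cover counting error only.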

Additional observations from a re-analysis of the deposited data

How the results depend on the processing

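Regions chosen from calls depend on what was called. Against 1520 clustered gained regions, there were 497 with a −log10 p of at least 10, 24 with lists of equal length, 146 and 5141 with gaps of 5 and 25 kb, 63 in clusters of 5 or more, and 1813 to 14631 when 1 library was left out (lowest without DMSO replicate 2, highest without I-BET151 replicate 1). With a replicate block, that is, with same-numbered libraries compared as pairs, pair 1 alone gave 6924 and pair 2 alone 25053. Of the 479 clusters, 350 (73.1%) were found again with a −log10 p of at least 5 and 40 (8.35%) with at least 10. The CTCF share of 4.21% was 5.63% with a −log10 p of at least 10, 6.16% with gaps of 5 kb, 2.76% within 50 bp of the summit and 1.95 to 4.14% without 1 library (lowest without I-BET151 replicate 1, 2.84% without I-BET151 replicate 2). Of the regions called in all 4 lists inside clusters, 1 rose and 2 fell in rank with limma, and the replicate block gave the same 1 and 2. The log2 depth-scaled pileup gave 44 and 0, ranks by −log10 p 1 and 0, gaps of 5 kb 0 and 0 of 0 regions, gaps of 25 kb 11 and 13 of 471, and leaving out 1 library 0 to 3 and 0 to 2. A crossed pairing, added after seeing the data, gave 2 and 5. Over all 25627 tested, 875 rose and 503 fell, against 8 and 27 for ranks by −log10 p, 24624 and 14 for the log2 depth-scaled pileup, 1985 and 1567 for the crossed pairing, and 192 to 1799 and 145 to 1734 without 1 library. The difference in peaks standing in runs turned from 12 to −3.20 percentage points with equal lists and to −6.50 in pair 1 alone, and was 30.5 in pair 2 alone. The mean left-out difference turned from 1.60 to −0.00484 with a −log10 p of at least 10, to −0.509 with equal lists and to −1.65 for replicate 1 alone. The causes were not tested. Clustered regions rest on a median of 13 and 21 reads at the summit, which limits the precision of each value.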
